A study of Homo sapiens with 9 samples.

Results

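The genes described are 9 lysine acetyltransferases, EP300, CREBBP, KAT2A, KAT2B, KAT5, KAT6A, KAT6B, KAT7 and KAT8, and TRRAP, the scaffold protein that carries several of them to chromatin. They were chosen by symbol from a count table of 26485 genes, and all 10 were present and passed the filter on low counts, as did 12845 genes in all. RNA was sequenced from MV4;11 cells, an established line from a human acute myeloid leukaemia that carries an MLL fusion and a FLT3 duplication. There were 3 libraries each of cells with the K148R substitution in MYC, cells with the K148Q substitution in MYC, and parental cells with wild-type MYC. All were untreated and grown in RPMI. The titles code the genotypes as R14, Q2 and WT, and whether each mutant line is 1 clone, how the substitutions were made and whether the 3 libraries came from separate cultures is stated in none of the sources used here. The p-values therefore measure the spread between these libraries, which may be technical.

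Lysine acetyltransferases move an acetyl group from acetyl-CoA to lysine side chains of histones and other proteins, which neutralises the charge of the lysine. EP300 and CREBBP are paralogous coactivators recruited to enhancers and promoters. KAT2A (GCN5) and KAT2B (PCAF) are alternative catalytic subunits of the SAGA and ATAC complexes. KAT5 (TIP60), KAT6A (MOZ), KAT6B (MORF), KAT7 (HBO1) and KAT8 (MOF) form the MYST family, and each works in a multi-subunit complex. MYC is itself acetylated by p300/CBP, GCN5/PCAF and TIP60, and it recruits SAGA and NuA4/TIP60 through TRRAP. In such designs glutamine is used to imitate an acetylated lysine, and arginine to keep the positive charge without allowing acetylation. The question the design implies for these genes is whether the enzymes that act on and with MYC are expressed at other levels in cells that carry either form.

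Library totals ran from 13747087 to 18938391 counts. Levels are given in CPM, a count scaled to a common library size after TMM normalisation. The 10 fixed myeloid leukaemia markers were each at 1 CPM or above in every genotype, with summed levels of 3930 CPM in K148R, 2520 CPM in K148Q and 1740 CPM in parental cells. The 3 T cell markers summed to 0.141 CPM in K148R cells, with CD3E at 0 counts, and had 0 counts in K148Q and parental cells. The B cell markers summed to 4.16, 4.1 and 2.23 CPM in K148R, K148Q and parental cells, and erythroid markers to 0.0633, 0 and 0.0402 CPM. Epithelial and stromal markers summed to 4.39 CPM in K148R cells, 0.0207 CPM in K148Q cells and 0.566 CPM in parental cells. In K148R cells COL1A1 had 2.89 CPM and COL1A2 1.48 CPM, with CDH1 at 0.0226 CPM and EPCAM at 0 counts. In parental replicates 1, 2 and 3 COL1A1 had 14, 1 and 0 counts and COL1A2 13, 0 and 0 counts. Of the myeloid markers, LYZ had 1650, 491 and 161 CPM in K148R, K148Q and parental cells, and CD4 743, 376 and 226 CPM. FLT3 had 301, 676 and 652 CPM, MPO 2.88, 3.9 and 7.52 CPM, and MEIS1 59.7, 52.8 and 75.8 CPM. The highest of the 10 was LYZ in K148R cells and FLT3 in K148Q and parental cells. The part of these marker differences in the results below was not tested. MYC averaged 379 ± 3.38 CPM in K148R, 473 ± 29.5 CPM in K148Q and 333 ± 4.05 CPM in parental cells (SD, n = 3 each). These are gene counts that do not show the substitution. K148Q replicate 3 stood apart from its group: the chi-square per degree of freedom between libraries was 16.9 and 17.4 for its pairs, against 1.33 for the other K148Q pair, 2.95 to 4.99 in K148R and 1.52 to 1.6 in parental cells.

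Promoter sequences of CREBBP and KAT2A are shown because these genes had the largest rise and the largest fall in K148R cells, and a stretch of KAT5 because it holds the canonical E-box that MYC and MAX bind. The sequences are RefSeq's on GRCh38.p14, each window covers the 250 bases before an annotated start, and 7 of the 10 genes were matched (EP300, CREBBP, KAT2A, KAT2B, KAT5, KAT6B and KAT7). The CREBBP window lies at chr16:3880714-3880963 on the minus strand with 72.4% GC, that of KAT2A at chr17:42121368-42121617 on the minus strand with 58.8% GC, and the KAT5 stretch at chr11:65712005-65712034 on the plus strand, its E-box beginning 235 bases before the start. Capitals mark GC boxes (GGGCGG, either strand; adjacent matches can overlap) in CREBBP and the E-box (CACGTG) in KAT5.
CREBBP promoter: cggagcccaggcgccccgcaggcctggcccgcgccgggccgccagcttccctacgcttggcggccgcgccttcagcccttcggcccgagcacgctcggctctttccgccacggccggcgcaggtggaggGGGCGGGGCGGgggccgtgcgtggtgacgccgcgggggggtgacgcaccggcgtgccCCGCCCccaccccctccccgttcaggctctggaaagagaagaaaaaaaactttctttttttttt
KAT2A promoter: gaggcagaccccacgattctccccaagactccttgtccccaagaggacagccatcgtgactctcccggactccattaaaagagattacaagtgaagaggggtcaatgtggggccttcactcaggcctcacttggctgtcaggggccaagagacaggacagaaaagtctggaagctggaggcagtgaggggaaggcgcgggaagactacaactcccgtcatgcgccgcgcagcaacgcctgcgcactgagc
KAT5 E-box stretch: cccggtgggcgtCACGTGacggactcagta
The CREBBP window shown held 3 GC boxes, and that of a second annotated start (chr16:3880121-3880370, 84.0% GC) held 4. None of the motifs searched was found in the KAT2A window. Of the other matched genes, KAT2B, which also fell in K148R cells, held 3 GC boxes. EP300, which rose there, held 0, as did KAT5 and KAT7, and the KAT6B windows held 0, 10 and 1. Whether these counts go with the direction of change was not tested. The motifs, searched on both strands, were the E-box CACGTG, its variant CACGCG, the cyclic AMP response element TGACGTCA, the E2F site TTTNGCGC, GGGCGG and CCAAT. Of 35116 RefSeq promoter windows of the same length, 6.34% held CACGTG, 9.72% CACGCG, 1.65% TGACGTCA, 1.51% TTTNGCGC, 42.6% GGGCGG and 32.0% CCAAT. KAT5 alone among the 7 matched genes held CACGTG. In GENCODE v29 KAT5 starts at chr11:65711996, so the stretch shown lies inside the gene there and upstream only of the RefSeq start. A match is only a run of letters and does not show binding.

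EP300 and CREBBP were both higher in either mutant than in parental cells, and higher in K148R than in K148Q cells. EP300 (ENSG00000100393.12, chr22:41091786-41180079, plus strand, GRCh38, GENCODE v29) encodes p300, a coactivator that acetylates histone H3 at active enhancers. EP300 had 236.4, 232.0 and 212.0 CPM in K148R libraries, 161.4, 160.1 and 146.7 CPM in K148Q libraries, and 135.4, 124.5 and 131.9 CPM in parental libraries. The groups did not overlap in any pair. By the edgeR quasi-likelihood test with Benjamini-Hochberg adjustment over all 12845 genes, EP300 in K148R cells rose by 0.80 ± 0.062 (log2, SE) over parental cells (adjusted p = 2.0e-08), which is 1.74-fold. In K148Q cells it rose by 0.26 ± 0.062 (adjusted p = 0.0031), or by 0.17 with a correction for GC content (adjusted p = 0.0011). K148R exceeded K148Q by 0.54 ± 0.061 (adjusted p = 1.7e-06).

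CREBBP (ENSG00000005339.14, chr16:3725054-3880726, minus strand) encodes CBP, the paralog of p300, first found as a binding protein of CREB. CREBBP had 149.3, 145.2 and 147.8 CPM in K148R libraries, 70.9, 68.5 and 66.0 CPM in K148Q libraries, and 46.5, 44.8 and 44.0 CPM in parental libraries. The order K148R, K148Q, parental held for every library. CREBBP was 3.27-fold higher in K148R than in parental cells (log2 1.71 ± 0.059 SE, adjusted p = 2.1e-12), the largest change among the 10 genes, and 15.0% of all genes tested changed by at least as much. It was 1.52-fold higher in K148Q than in parental cells (0.60 ± 0.06, adjusted p = 1.2e-06) and 2.15-fold higher in K148R than in K148Q cells (1.11 ± 0.058, adjusted p = 2.5e-10).

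Within a library, the ratio of counts of CREBBP to EP300 does not depend on scaling. The mean ratio was 0.652 in K148R, 0.439 in K148Q and 0.346 in parental cells, and the log2 ratios were -0.62 ± 0.086, -1.19 ± 0.036 and -1.53 ± 0.056 (SD, n = 3 each). The ratio was higher in both mutants, by 0.91 (log2) in K148R and 0.35 in K148Q cells against parental cells and by 0.57 in K148R against K148Q cells. No pair of groups overlapped, and each exact two-sided permutation p was 0.1, the smallest that 3 against 3 libraries allow (0.129 adjusted over the 9 paralog comparisons), so no ratio could pass the threshold.

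**Figure D1:**
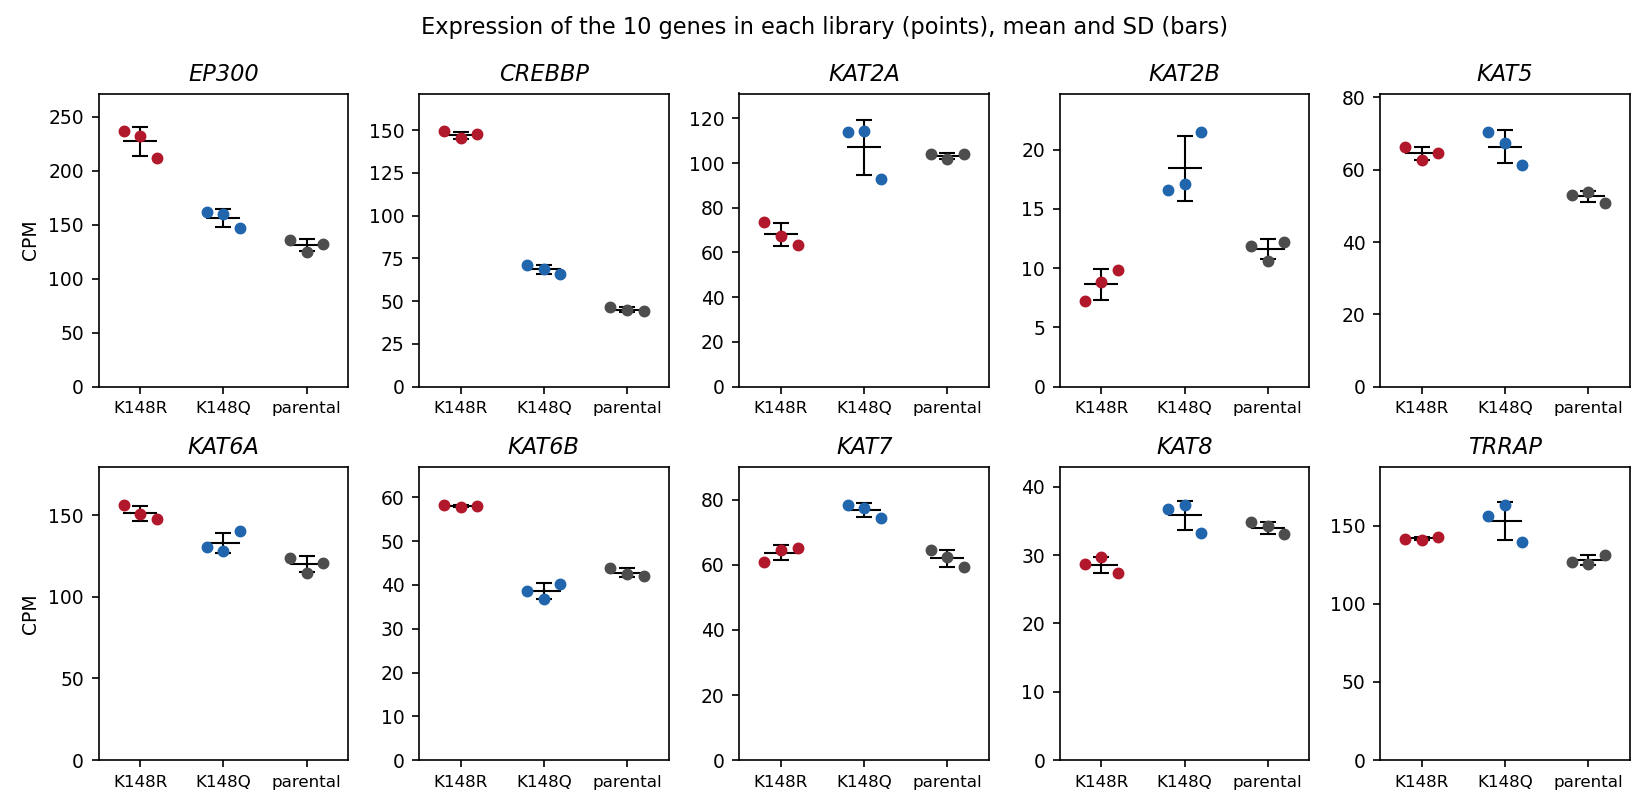
CPM of each of the 10 genes, one panel per gene, with a point per library, a bar for the mean and SD of 3 libraries, K148R cells left, K148Q cells in the middle and parental cells right; the axes start at 0 and differ between panels. CREBBP in K148R cells sat between 145.2 and 149.3 CPM, above every K148Q and parental library, and KAT2A in K148R cells between 63.5 and 73.7 CPM, below all other libraries.

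KAT2A and KAT2B both fell in K148R cells, and KAT2B but not KAT2A was called higher in K148Q cells. KAT2A (ENSG00000108773.10, chr17:42113108-42121358, minus strand) encodes GCN5, which acetylates histone H3 in promoters as part of SAGA. KAT2A had 73.7, 67.3 and 63.5 CPM in K148R libraries, 113.9, 114.3 and 93.0 CPM in K148Q libraries, and 104.0, 101.8 and 104.1 CPM in parental libraries. The K148R libraries were the lowest, while K148Q and parental libraries overlapped. KAT2A in K148R cells fell by 0.60 ± 0.082 (log2, SE) relative to parental cells (adjusted p = 9.8e-06) and by 0.65 ± 0.082 relative to K148Q cells (adjusted p = 4.9e-06). In K148Q against parental cells the difference was 0.05 ± 0.081 (adjusted p = 0.62). It was 0.15 without K148Q replicate 3, in which KAT2A was low (adjusted p = 0.014), and -0.05 with the GC content correction (adjusted p = 0.27).

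KAT2B (ENSG00000114166.7, chr3:20040023-20154404, plus strand) encodes PCAF, the paralog that replaces GCN5 in a share of the complexes. KAT2B had 7.24, 8.81 and 9.85 CPM in K148R libraries, 16.6, 17.1 and 21.5 CPM in K148Q libraries, and 11.9, 10.6 and 12.2 CPM in parental libraries. It was the gene with the fewest reads of the 10, with 130 to 347 counts per library. K148Q libraries were the highest and K148R libraries the lowest, with no overlap. KAT2B was 1.59-fold higher in K148Q than in parental cells (0.67 ± 0.131 SE, adjusted p = 0.00065) and fell by 0.43 ± 0.14 (log2, SE) in K148R cells (adjusted p = 0.012). The K148R call ended without K148R replicate 1 (-0.31, adjusted p = 0.07). K148R was below K148Q by 1.10 ± 0.135 (adjusted p = 3.8e-06), which is 0.467 of the K148Q level.

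The ratio of KAT2B to KAT2A within a library overlapped between K148R and parental cells. The log2 ratio was -2.99 ± 0.334 in K148R, -2.54 ± 0.374 in K148Q and -3.16 ± 0.088 in parental cells (SD, n = 3 each). K148Q against parental cells gave 0.62, with no overlap and an exact permutation p of 0.1. K148R against parental cells gave 0.17 (exact p = 0.5) and K148R against K148Q cells -0.45 (exact p = 0.3), both with overlapping libraries. The K148Q libraries had -2.78, -2.74 and -2.11, and replicate 3, the highest, is the library that stood apart.

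In the MYST family, KAT5 was higher in both mutants, KAT6A and KAT6B rose in K148R cells, KAT7 rose in K148Q cells and KAT8 fell in K148R cells. KAT5 (ENSG00000172977.12, chr11:65711996-65719604, plus strand) is the catalytic subunit of NuA4/TIP60, which acetylates histone H4 and takes part in the DNA damage response. KAT5 had 66.3, 62.8 and 64.5 CPM in K148R libraries, 70.5, 67.4 and 61.4 CPM in K148Q libraries, and 53.1, 53.9 and 50.8 CPM in parental libraries. Every mutant library was above every parental library, and the mutants overlapped each other. KAT5 rose by 0.30 ± 0.069 (log2, SE) in K148R cells (adjusted p = 0.0013) and by 0.34 ± 0.069 in K148Q cells (adjusted p = 0.0009). The K148R call ended with a correction for GC content (0.07, adjusted p = 0.2). K148R against K148Q cells gave -0.04 (adjusted p = 0.6), and -0.17 with that correction (adjusted p = 0.0038). KAT5 shares 1439 exon bases, 38.6% of its exons, with RNASEH2C on the opposite strand, and the sources used here do not give the strand of counting. RNASEH2C averaged 43.4 CPM in K148R, 67.4 CPM in K148Q and 55.7 CPM in parental cells.

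KAT6A (ENSG00000083168.10, chr8:41929479-42052026, minus strand) encodes MOZ, which acetylates histone H3 with BRPF1 and is a fusion partner in some myeloid leukaemias. KAT6A had 156.1, 150.7 and 147.5 CPM in K148R libraries, 130.6, 128.3 and 140.0 CPM in K148Q libraries, and 124.0, 114.6 and 120.8 CPM in parental libraries. No pair of groups overlapped. It rose by 0.34 ± 0.058 in K148R cells (adjusted p = 8.7e-05). In K148Q cells it rose by 0.15 ± 0.058 (adjusted p = 0.041), a call that ended in 8 alternatives, among them the fit of only those 2 groups (0.16, adjusted p = 0.053) and the fits without any 1 parental library, K148Q replicate 1 or K148R replicate 2 (0.12 to 0.17). K148R exceeded K148Q by 0.19 (adjusted p = 0.0092), which ended in the fit of those 2 groups alone (0.16, adjusted p = 0.058).

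KAT6B (ENSG00000156650.13, chr10:74824927-75032624, plus strand) encodes MORF, the paralog of MOZ. KAT6B had 58.2, 57.8 and 58.1 CPM in K148R libraries, 38.7, 36.7 and 40.3 CPM in K148Q libraries, and 43.9, 42.6 and 42.0 CPM in parental libraries. K148R libraries were the highest and K148Q libraries the lowest. It rose by 0.44 ± 0.066 (log2, SE) in K148R cells (adjusted p = 2.7e-05). K148Q against parental cells gave -0.15 ± 0.068 (adjusted p = 0.073). This passed the threshold without K148Q replicate 3 (-0.17, adjusted p = 0.023) and with upper quartile scaling (-0.19, adjusted p = 0.026). K148R exceeded K148Q by 0.59 ± 0.067 (adjusted p = 1.6e-06). The log2 ratio of KAT6B to KAT6A was -1.38 ± 0.04 in K148R, -1.79 ± 0.026 in K148Q and -1.48 ± 0.05 in parental cells. No pair overlapped, and each exact permutation p was 0.1. The differences were 0.10 in K148R and -0.30 in K148Q cells against parental cells, and 0.40 in K148R against K148Q cells.

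KAT7 (ENSG00000136504.11, chr17:49788555-49835030, plus strand) encodes HBO1, which acetylates histones H3 and H4 and serves in replication licensing. KAT7 had 61.0, 64.7 and 65.3 CPM in K148R libraries, 78.3, 77.6 and 74.4 CPM in K148Q libraries, and 64.4, 62.3 and 59.2 CPM in parental libraries. The K148Q libraries were above all others. KAT7 rose by 0.31 ± 0.064 in K148Q cells (adjusted p = 0.00093). The difference of K148R from parental cells was 0.04 ± 0.064 (adjusted p = 0.59), and K148R was below K148Q by 0.27 ± 0.063 (adjusted p = 0.0015).

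KAT8 (ENSG00000103510.19, chr16:31115754-31131393, plus strand) encodes MOF, which acetylates histone H4 in the MSL and NSL complexes. KAT8 had 28.7, 29.7 and 27.4 CPM in K148R libraries, 36.7, 37.3 and 33.3 CPM in K148Q libraries, and 34.8, 34.2 and 33.1 CPM in parental libraries. The K148R libraries were below all others. In K148R cells it fell by 0.25 ± 0.078 relative to parental cells (adjusted p = 0.0088) and by 0.32 ± 0.078 relative to K148Q cells (adjusted p = 0.0017). With the GC content correction the fall from parental cells was larger (-0.42, adjusted p = 2.2e-06). In K148Q cells the difference was 0.07 ± 0.077 (adjusted p = 0.45), and -0.02 with that correction (adjusted p = 0.79).

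TRRAP (ENSG00000196367.13, chr7:98877933-99050831, plus strand) is a pseudokinase of the PIKK family, shared by SAGA and NuA4/TIP60, that was found as a partner of MYC. TRRAP had 141.2, 140.8 and 142.6 CPM in K148R libraries, 156.1, 163.2 and 139.4 CPM in K148Q libraries, and 126.7, 125.5 and 131.5 CPM in parental libraries. Both mutants were above parental cells in every library. TRRAP rose by 0.26 ± 0.062 in K148Q cells (adjusted p = 0.0029; 0.16 with the GC content correction, adjusted p = 0.0012) and by 0.15 ± 0.062 in K148R cells (adjusted p = 0.044). The K148R call ended in 11 alternatives, among them the fits without any 1 library other than K148Q replicates 2 and 3 (0.12 to 0.16), and with the GC content correction its sign turned (-0.02, adjusted p = 0.71). K148R against K148Q cells gave -0.11 ± 0.062 (adjusted p = 0.12), which became a call without K148Q replicate 3 (-0.19, adjusted p = 0.0003) and with the GC content correction (-0.18, adjusted p = 0.00029).

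**Figure D2:**
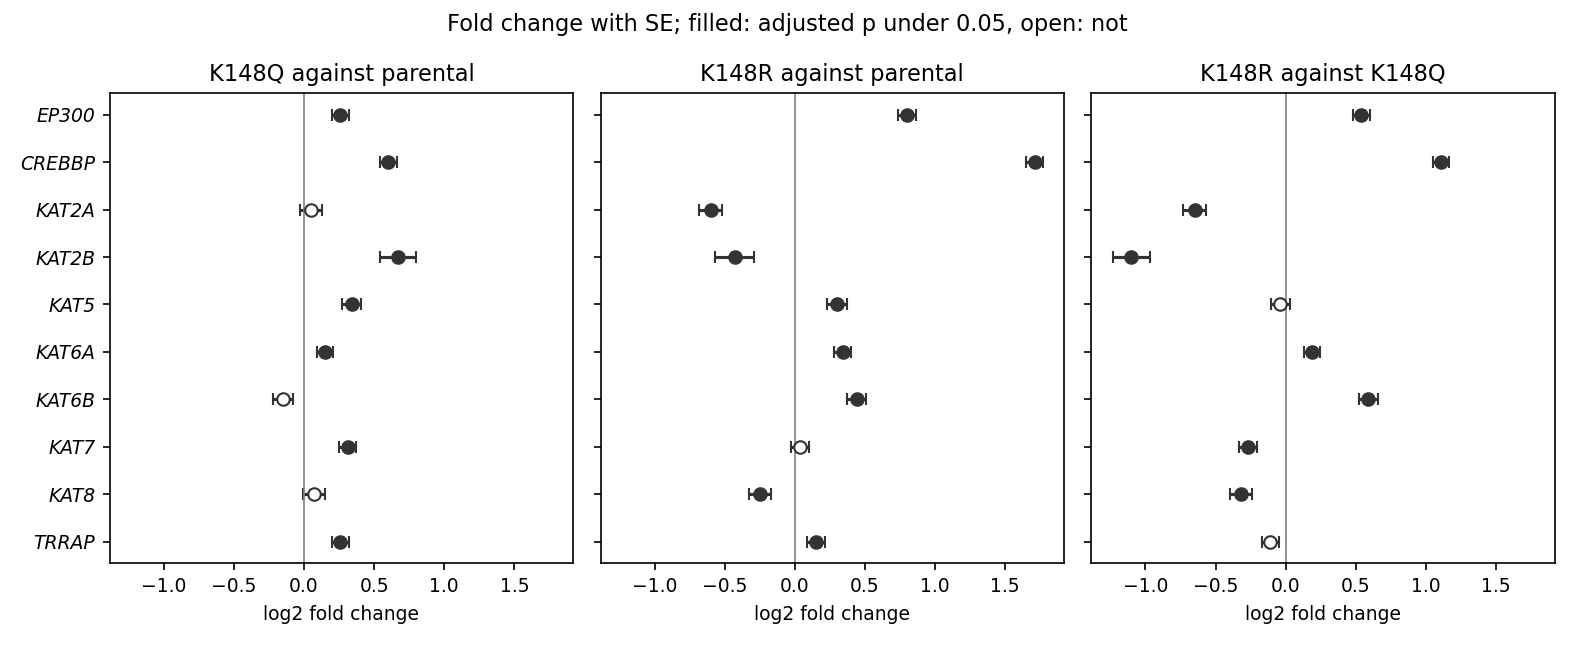
Log2 fold change (x axis) with its SE for the 10 genes in 3 panels, K148Q over parental, K148R over parental and K148R over K148Q cells; filled points passed an adjusted p of 0.05. CREBBP reached 1.71 in K148R against parental cells, and KAT2B -1.10 in K148R against K148Q cells.

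Counted together, 6 of the 10 genes rose and 3 fell in K148R against parental cells, where 75.1% of all genes tested were called (37.8% higher, 37.3% lower). In K148Q against parental cells 7 rose and 0 fell by edgeR, DESeq2 or limma-voom, and 1, KAT6B, was lower at an unadjusted p under 0.05, against a background of 53.3% called (27.0% higher, 26.3% lower). Between K148R and K148Q cells 4 were higher and 4 lower, against 71.0% called (36.6% higher, 34.5% lower). The shares of the 10 genes called were 90.0% in K148R and 70.0% in K148Q against parental cells and 80.0% between the mutants, and a share called this high over all genes makes the size of each change, not the call, the description. With the GC content correction the split became 4 higher and 3 lower in K148R against parental cells, and 4 higher and 6 lower in K148R against K148Q cells; with upper quartile scaling it became 6 higher and 1 lower in K148Q against parental cells. The median size of change (absolute log2) of the 10 genes was 0.38 in K148R and 0.26 in K148Q against parental cells, below the 0.58 and 0.3 of all genes tested. Only CREBBP passed 2-fold against parental cells, in K148R, where 29.2% of all genes were called with at least that fold. The 2 comparisons with parental cells share the parental libraries, so their values are set side by side and not correlated. In bulk RNA, fewer cells of a type and less RNA per cell cannot be told apart.

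K148Q replicate 3 was above the mean of K148Q replicates 1 and 2 for the 3 genes with the lowest transcript GC content, KAT2B by 0.35 (log2, 44.32% GC), KAT6B by 0.10 (45.3% GC) and KAT6A by 0.11 (45.37% GC). The other 7 genes were below it, from KAT7 at -0.07 (46.05% GC) to KAT2A at -0.30 (59.89% GC). Among these the departure did not follow the order of GC content, with CREBBP at -0.08 (55.75% GC), KAT5 at -0.17 (58.58% GC) and TRRAP at -0.20 (52.71% GC), and no test over genes was made. Calls that change without that library are given beside the genes concerned.

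Levels of different genes were compared as CPM per kilobase of merged exons. In K148R cells EP300 (18.1 ± 1.04), KAT2A (18.1 ± 1.37) and KAT5 (17.3 ± 0.463) shared the top of the order and overlapped (SD, n = 3). CREBBP (9.52 ± 0.133) came next, followed by TRRAP (7.09), KAT8 (6.59), KAT6A (6.26), KAT7 (5.42), KAT6B (1.79) and KAT2B (1.53), and of these neighbours only KAT8 and KAT6A overlapped. In K148Q cells the order was KAT2A (28.4 ± 3.24), KAT5 (17.8), EP300 (12.5), KAT8 (8.26), TRRAP (7.66), KAT7 (6.53), KAT6A (5.5), CREBBP (4.42), KAT2B (3.27) and KAT6B (1.19), with overlap between KAT8 and TRRAP. In parental cells KAT2A led with 27.4 ± 0.343, ahead of KAT5 (14.1), EP300 (10.4), KAT8 (7.85), TRRAP (6.4), KAT7 (5.27), KAT6A (4.96), CREBBP (2.91), KAT2B (2.05) and KAT6B (1.32), and only KAT7 and KAT6A overlapped. The lengths matter for KAT6A and KAT6B, whose longest transcripts have 9254 and 8348 bases against merged exons of 24175 and 32495. Per kilobase of the longest transcript KAT5 led in K148R cells (28.1 ± 0.753) with no overlap with EP300 (23.7 ± 1.36), KAT6A stood at order 4 there (16.4), and in K148Q cells KAT2A (34.4) and KAT5 (28.9) overlapped. The parental levels of KAT6A and KAT6B on that length were 12.9 and 5.13, and CREBBP stood at order 5 in K148R cells (13.6) and 9 in parental cells (4.18).

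**Figure D3:**
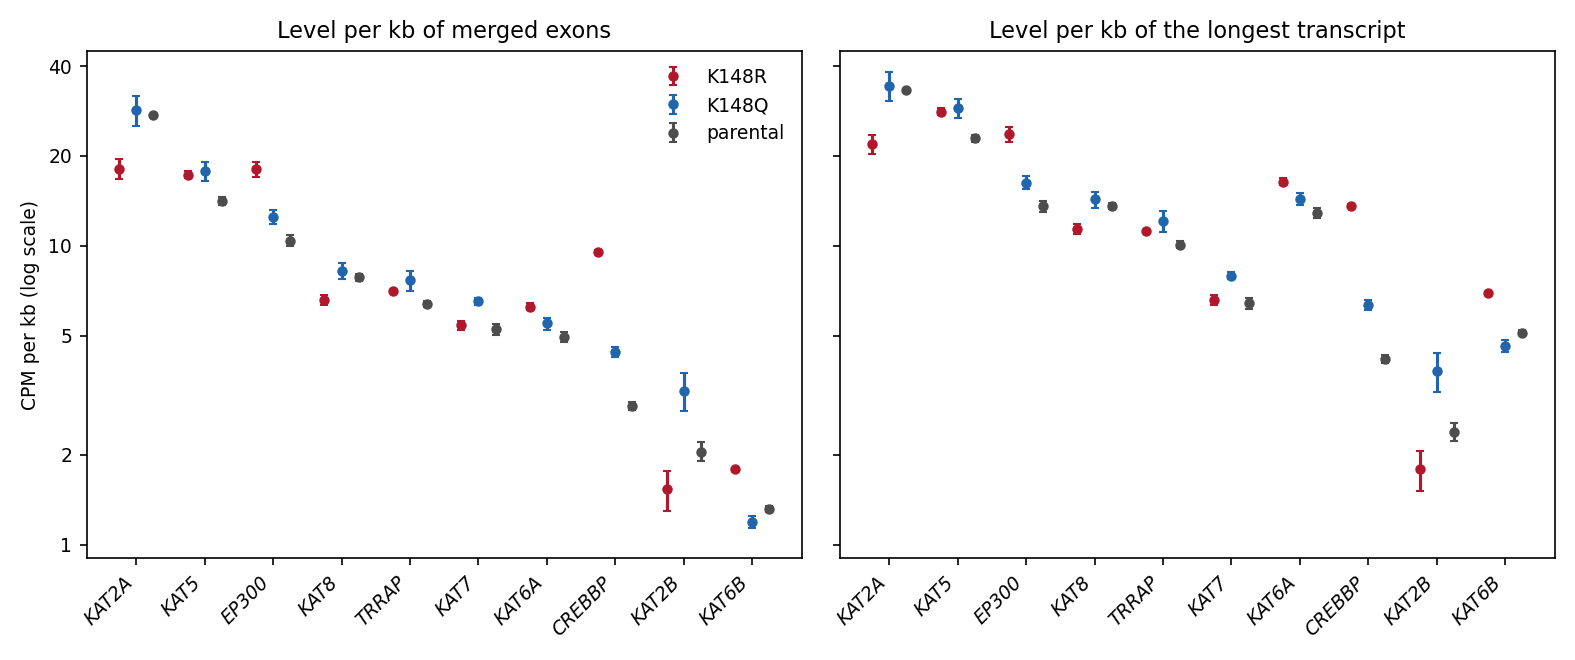
Level in CPM per kilobase (log axis) of merged exons, left, and of the longest transcript, right, as mean and SD of 3 libraries in K148R, K148Q and parental cells, drawn in that order for each gene. CREBBP averaged 9.52 in K148R and 2.91 in parental cells per kilobase of merged exons.

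**Figure D4:**
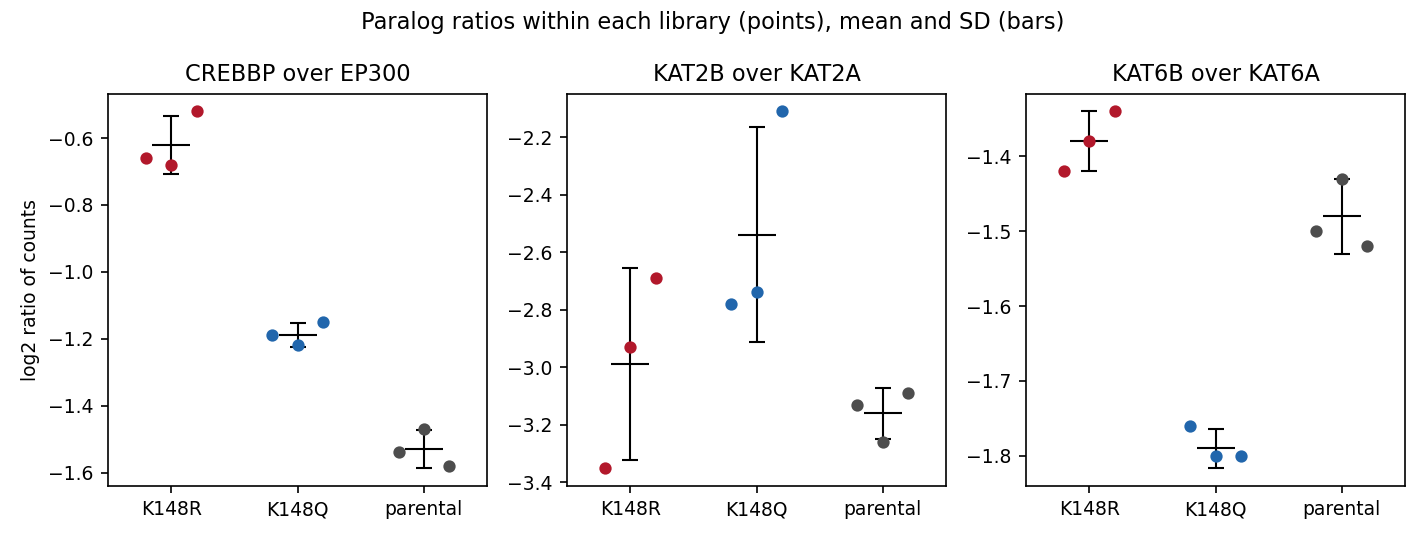
Log2 ratio of counts within each library (y axis, points), with mean and SD of 3 libraries, for CREBBP over EP300, KAT2B over KAT2A and KAT6B over KAT6A in K148R, K148Q and parental cells. The CREBBP to EP300 ratios did not overlap between genotypes, with means of -0.62, -1.19 and -1.53.

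The genes with profiles most like each of the 10 other than KAT6B over the 9 libraries were found by the root mean square difference of log2 CPM, each profile centred on its mean, among 9066 genes with a mean of at least 10 CPM. For CREBBP these were LAMP1, a lysosomal membrane protein (0.045), and SLC45A4 (0.051), and for EP300 they were CES2, a carboxylesterase (0.034), and SRRT (0.043). LAMP1 had 497.2 to 509.3 CPM in K148R, 226.1 to 231.8 CPM in K148Q and 147.0 to 150.7 CPM in parental libraries. For KAT2A they were SLC39A4 (0.045) and PSMC3, a proteasome ATPase (0.048), and for KAT2B VANGL1 (0.113) and RAB27A (0.134), the least close. For KAT5 they were MAF1, a repressor of RNA polymerase III (0.039), and PRPF8 (0.042), and for KAT6A TRIM44 (0.034) and TAOK3 (0.039). For KAT7 they were NANS and PTDSS1 (0.044 each), for KAT8 MRPL27, a mitochondrial ribosomal protein (0.022), and TXNDC17 (0.026), and for TRRAP VPS26B (0.04) and USP22, the SAGA deubiquitinase (0.042). Likeness was measured on the libraries that also give the comparisons.

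The partners of the 10 genes were divided into 8 lists of complex subunits and related enzymes with 106 different genes tested. In K148R against parental cells 34 of the 106 were higher and 40 lower (69.8% called, against 75.1% of all genes tested). In K148Q against parental cells 38 were higher and 27 lower (61.3%, against 53.3% of all genes), or 33 and 32 with upper quartile scaling. With the GC content correction the split was 43 higher and 40 lower in K148R cells. Between K148R and K148Q cells 29 were higher and 39 lower (64.2%, against 71.0% of all genes). The lists are described by count and median log2 only, and the median of all genes tested was 0.00 in K148R and -0.01 in K148Q cells.

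Of 24 SAGA and ATAC subunits, 7 rose and 8 fell in K148R cells, and 8 rose and 5 fell in K148Q cells (median 0.03 in each). The shares called were 62.5% and 54.2%, against 75.1% and 53.3% of all genes. TADA2B, the adaptor specific to SAGA that partners GCN5, was 3.19-fold higher in K148R than in parental cells (80.3 ± 4.72 CPM in K148R, 51.1 ± 0.672 CPM in K148Q and 25.2 ± 1.4 CPM in parental cells; adjusted p = 2.9e-11 in K148R). SUPT3H, a SAGA core subunit, fell by 1.22 ± 0.136 in K148R cells (adjusted p = 1.1e-06) and by 0.45 ± 0.127 in K148Q cells (adjusted p = 0.008), the K148Q call ending without K148Q replicate 1 (-0.34, adjusted p = 0.05). WDR5, shared by ATAC and the MLL methyltransferase complexes, fell by 0.37 ± 0.055 in K148R cells (adjusted p = 2.4e-05; -0.56 with the GC content correction) and rose by 0.14 ± 0.054 in K148Q cells (adjusted p = 0.043), a call that ended with the GC content correction (0.05, adjusted p = 0.37) and in the fits without any 1 library other than K148Q replicate 3 and K148R replicate 3 (0.11 to 0.16). TAF6L was called in no comparison (21.7 CPM in K148R, 25.2 CPM in K148Q and 21.3 CPM in parental cells), but was called higher in K148Q cells without K148Q replicate 3 (0.36, adjusted p = 0.001), where K148R was also below K148Q cells (-0.34, adjusted p = 0.0014). With the GC content correction it was lower in K148R than in parental cells (-0.25, adjusted p = 0.0075) and than in K148Q cells (-0.34, adjusted p = 0.00048).

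Of 16 NuA4/TIP60 subunits, 5 rose and 9 fell in K148R cells with a median of -0.38, and 5 rose and 7 fell in K148Q cells with a median of -0.13. The shares called were 87.5% and 75.0%, against 75.1% and 53.3% of all genes. The largest falls in K148R cells were in RUVBL1 and in YEATS4, which fell by 1.55 (log2). RUVBL1, a helicase also used by INO80 and other complexes, had 59.6 ± 0.698 CPM in K148R, 175 ± 14.3 CPM in K148Q and 197 ± 1.36 CPM in parental cells, a fall of 1.73 ± 0.064 in K148R cells (adjusted p = 4.3e-12). In K148Q cells RUVBL1 was called lower (-0.17, adjusted p = 0.029), and the call ended in the fit of those 2 groups (-0.16, adjusted p = 0.052), without any 1 parental library (-0.18 to -0.17) and without K148Q replicate 3 (-0.1, adjusted p = 0.055). RUVBL2, its partner, fell by 1.03 ± 0.062 (adjusted p = 9.6e-10), and ACTL6A, an actin-related subunit, fell by 1.24 ± 0.058 (adjusted p = 5.8e-11) in K148R cells, while neither was called in K148Q cells (-0.02, adjusted p = 0.85, and -0.08, adjusted p = 0.23). With the GC content correction both RUVBL1 (-0.26, adjusted p = 4.9e-06) and RUVBL2 (-0.12, adjusted p = 0.0027) were called lower in K148Q cells. MEAF6, on this list and on that of the MOZ and HBO1 complexes, was called in no comparison by the edgeR fit, and was lower in K148Q cells with upper quartile scaling (-0.22, adjusted p = 0.028) or without K148Q replicate 3 (-0.25, adjusted p = 0.00068), where K148R also exceeded K148Q cells (0.21, adjusted p = 0.003). MEAF6 with the GC content correction was higher in K148R than in parental cells (0.2, adjusted p = 0.0007) and than in K148Q cells (0.26, adjusted p = 5.1e-05).

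Of 9 subunits of the MOZ/MORF and HBO1 complexes, 4 rose and 2 fell in K148R cells and 6 rose and 2 fell in K148Q cells, with medians of 0.13 and 0.35. The shares called were 66.7% and 88.9%, against 75.1% and 53.3% of all genes. BRPF1, the scaffold of MOZ and MORF, was 1.83-fold higher in K148R cells (98.0 ± 2.44 CPM in K148R, 69.7 ± 7.04 CPM in K148Q and 53.4 ± 3.47 CPM in parental cells; adjusted p = 1.0e-07 in K148R and 0.00097 in K148Q). JADE1, a scaffold of HBO1, fell by 1.26 ± 0.101 in K148R cells (adjusted p = 2.9e-08) and rose by 0.44 ± 0.093 in K148Q cells (adjusted p = 0.0012). JADE2, its paralog, fell in both mutants, by 0.79 in K148R and 0.35 in K148Q cells. Of 10 MSL and NSL subunits, 3 rose and 2 fell in K148R cells (median 0.01, 5 of 10 called against 75.1% of all genes) and 4 rose and 3 fell in K148Q cells (median 0.07, 7 of 10 called against 53.3%). OGT, the O-GlcNAc transferase held in NSL, fell by 0.62 ± 0.056 in K148Q cells (adjusted p = 3.8e-07) and had 155 CPM in K148R against 167 CPM in parental cells (adjusted p = 0.092), a difference called without K148Q replicate 3 (-0.12, adjusted p = 0.011). MSL3, the chromodomain subunit of MSL, rose by 0.87 in K148R and by 0.52 in K148Q cells, and KANSL3 fell by 0.21 in K148R and rose by 0.37 in K148Q cells. The KANSL3 call in K148R cells ended without K148R replicate 1 (-0.19, adjusted p = 0.059), without K148R replicate 2 (-0.2, adjusted p = 0.054) or without parental replicate 1 or 2 (-0.19 each, adjusted p = 0.066 and 0.061), and with the GC content correction the value was -0.36. KANSL2 was called in no comparison.

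Of 12 tested partners of p300 and CBP (EID3 did not pass the low-count filter), 4 rose and 1 fell in K148R cells (median 0.07) and 4 rose and 3 fell in K148Q cells (median -0.07). The shares called were 41.7% and 58.3%, against 75.1% and 53.3% of all genes. CITED2, a transcription cofactor that binds p300/CBP, was 2.24-fold higher in K148R and 2.04-fold higher in K148Q than in parental cells (147 ± 3.31 CPM in K148R, 134 ± 11.4 CPM in K148Q and 65.8 ± 1.74 CPM in parental cells). It was called higher in K148R than in K148Q cells without K148Q replicate 3 (0.19, adjusted p = 0.00059), with upper quartile scaling (0.17, adjusted p = 0.025) and with the GC content correction (0.14, adjusted p = 0.021). CRTC1, a CREB coactivator, was 2.28-fold and 1.49-fold higher in K148R and K148Q cells. CRTC2, its paralog, rose by 0.56 in K148R cells (adjusted p = 4.7e-06; 0.32 with the GC content correction) and gave 0.10 in K148Q cells (adjusted p = 0.28). EID1, an inhibitor of p300/CBP, had 203.1 CPM in K148Q replicate 3 and 125.4 and 127.8 CPM in the other K148Q libraries, and was called in no comparison by the edgeR fit. By limma-voom it was lower in K148Q than in parental cells (-0.39, adjusted p = 0.04). Without K148Q replicate 3 it was lower in K148Q than in parental cells (-0.62, adjusted p = 2.6e-13), lower in K148R than in parental cells (-0.2, adjusted p = 5.3e-05) and higher in K148R than in K148Q cells (0.42, adjusted p = 2.3e-09).

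Of 16 other acetyltransferases, 5 rose and 7 fell in K148R cells (median -0.11, 12 of 16 called) and 4 rose and 4 fell in K148Q cells (median -0.09, 8 of 16 called), against 75.1% and 53.3% of all genes called. ESCO2, which acetylates cohesin in S phase, had 9.04 ± 1.27 CPM in K148R, 83.8 ± 19.7 CPM in K148Q and 90.3 ± 3.23 CPM in parental cells, and its K148R level was 0.0998 of the parental level (adjusted p = 1.9e-09). ESCO2 was called lower in K148Q cells only without K148Q replicate 3 (-0.3, adjusted p = 8.4e-05). HAT1, which acetylates new histone H4, fell by 1.65 (log2) in K148R cells. NCOA3 and NCOA1, steroid receptor coactivators, both rose in K148R cells, by 1.20 ± 0.067 (adjusted p = 5.1e-10) and 1.85 ± 0.086 (adjusted p = 5.2e-11). In K148Q cells NCOA3 fell by 0.51 ± 0.07 (adjusted p = 3.0e-05) and NCOA1 rose by 1.01 ± 0.087 (adjusted p = 2.8e-07). NAA40, an N-terminal histone acetyltransferase, was called in no comparison, and was lower in both mutants with the GC content correction (-0.31 in K148R, -0.29 in K148Q), in K148Q cells with upper quartile scaling (-0.24), and in both without K148Q replicate 3 (-0.17 and -0.19) and without K148R replicate 2 (-0.25 and -0.2).

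Of 12 genes for the supply of acetyl-CoA, 6 rose and 6 fell in K148R cells (median 0.00), where 75.1% of all genes were called (37.8% higher, 37.3% lower). In K148Q cells 6 rose (median 0.06, 6 of 12 called against 53.3% of all genes) and 0 fell by edgeR, DESeq2 or limma-voom, with 0 lower at an unadjusted p under 0.05. The pyruvate dehydrogenase complex genes on the list, grouped after their values were seen, fell in K148R cells, PDHA1 by 0.38, PDHB by 0.47, PDHX by 0.46, DLAT by 0.33 and DLD by 0.50 (log2). In K148Q cells PDHA1 was called higher (0.16, adjusted p = 0.02), a call that ended with upper quartile scaling (0.12, adjusted p = 0.076), without parental replicate 2 or 3 and without K148Q replicate 1 or 2 (0.14 to 0.17), and the other PDH genes named were not called. ACLY, which makes cytosolic acetyl-CoA from citrate, rose by 0.33, ACSS2, which makes it from acetate, by 0.74, and SLC25A1, the citrate carrier, by 0.68 in K148R cells. In K148Q cells these rose by 0.30, 0.61 and 0.81. CS, citrate synthase, fell by 0.48 in K148R cells (adjusted p = 8.9e-07) and rose by 0.19 in K148Q cells (adjusted p = 0.0067), and CRAT, which exchanges acetyl groups with carnitine, rose by 0.93 in K148R cells (adjusted p = 2.0e-07). CRAT gave -0.09 in K148Q cells (adjusted p = 0.43), and was called lower there with the GC content correction (-0.21, adjusted p = 0.015). Of 8 genes of the PIKK family and its TTT chaperone, 5 fell in K148R cells with a median of -0.53 and 0 rose by edgeR, DESeq2 or limma-voom or at an unadjusted p under 0.05, and 1 rose and 3 fell in K148Q cells with a median of -0.03. The 5 and 4 of 8 called stand against 75.1% and 53.3% of all genes. PRKDC, the DNA-dependent protein kinase, had 634 ± 9.98 CPM in K148R, 1460 ± 10.8 CPM in K148Q and 1630 ± 45.4 CPM in parental cells, and fell by 1.36 ± 0.041 in K148R cells (adjusted p = 5.3e-13). TELO2, the TTT subunit that helps fold the family, fell by 1.36 ± 0.078 (adjusted p = 6.8e-10), and ATR, the replication stress kinase, by 0.94 ± 0.087 (adjusted p = 1.4e-07), in K148R cells. ATR was 1 of the 3 that fell in K148Q cells (-0.21, adjusted p = 0.05 after rounding), and that call ended with DESeq2 (adjusted p = 0.064), with the GC content correction (-0.06, adjusted p = 0.37), without any 1 parental library, without K148Q replicate 1 or 2 and without K148R replicate 1 (-0.24 to -0.16).

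**Figure D5:**
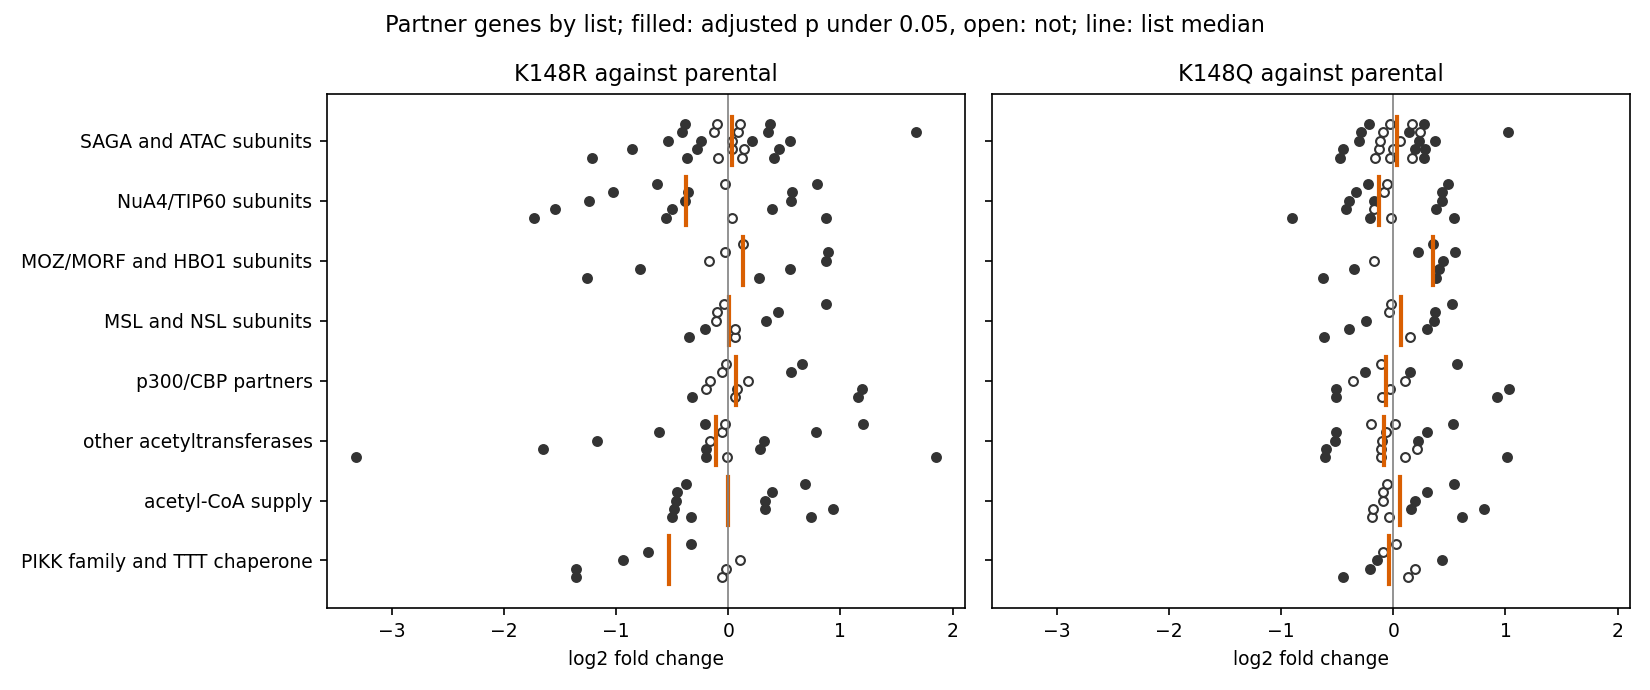
Log2 fold change against parental cells (x axis) of each tested partner gene in 8 lists, K148R left and K148Q right; filled points passed an adjusted p of 0.05, open points did not, and the line is the list's median. The PIKK and NuA4/TIP60 medians sat at -0.53 and -0.38 in K148R cells, against -0.03 and -0.13 in K148Q cells.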

How the data were processed

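RNA was measured in 9 libraries, 3 per genotype, and groups follow the genotype in the labels. The authors deposited a table of raw counts per gene symbol with no normalisation. FastQC 0.11.7, HISAT2 2.0.5, featureCounts 1.5.2 and GRCh38 are named in the submitters' processing notes, and the sources used here give neither the annotation nor the strand of counting. Every value column belonged to a sample. The edgeR 4.0.16 fit (R 4.3.3) used filterByExpr by group, TMM, all 9 libraries in 1 fit with a term per genotype, robust quasi-likelihood F test, Benjamini-Hochberg adjustment, called at an adjusted p under 0.05. The common biological coefficient of variation was 0.0738. The code was tested on simulated data. Paralog ratios used exact two-sided permutation tests. Alternatives were DESeq2 1.42.0, limma-voom 3.58.1, other scalings and filters, a replicate block, a GC content correction, the 2 groups alone, another transcript length and leaving out each library. Positions came from GENCODE v29 (GRCh38), matched by symbol for 23915 genes, and promoters from RefSeq. Text names all 10 genes, the 3 partners with the smallest p and up to 1 uncalled partner per list, and the 2 most similar genes each; YEATS4, HAT1 and the other acetyl-CoA genes were named after their values were seen. The members and lists were chosen with earlier results of these data known. The genes nearest to KAT6B in profile are not reported here.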

Additional observations from a re-analysis of the deposited data

Results flagged for a closer look

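KAT2B moved in opposite directions in the mutants: it was lower in K148R and higher in K148Q than in parental cells, and the difference between the mutants was tested directly as K148R against K148Q (-1.10 ± 0.135 log2, SE, edgeR adjusted p = 3.8e-06). It had 7.24 to 9.85 CPM in K148R, 16.6 to 21.5 CPM in K148Q and 10.6 to 12.2 CPM in parental cells. Over the alternatives the difference between the mutants ran from -1.21 to -0.98. The call of KAT2B in K148R against parental cells ended without K148R replicate 1 (-0.31, adjusted p = 0.07).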

How the results depend on the processing

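Of the fits of the 10 genes under alternatives, 535 kept their call and direction, 21 lost the call and 8 gained it with the sign kept, and 6 turned in sign. Of these 6, 4 were in KAT2A and KAT8, which were called in neither fit. The others were in TRRAP in K148R against parental cells, which lost its call as well. CREBBP kept its calls in every alternative run, at 1.51 to 1.72 in K148R and 0.51 to 0.64 in K148Q against parental cells and 1.01 to 1.14 between the mutants, as did EP300 (0.64 to 0.84, 0.17 to 0.31 and 0.47 to 0.59). With the GC content correction, alone or with the replicate block, signs turned in K148R against parental cells for TRRAP (-0.02), TAF6L (-0.25), MEAF6 (0.2), OGT (0.07), KANSL2 (-0.03) and EID1 (0.03, or 0.04 with the block), in K148Q against parental cells for KAT2A (-0.05, or -0.06 with the block), KAT8 (-0.02), ACTL6A (0.01), CRTC2 (-0.0), ESCO2 (0.06) and TELO2 (-0.16), and in K148R against K148Q cells for NAA40 (-0.02); the cause was not tested. Sign turns were followed only for the 10 genes and the partners named by smallest p or as uncalled, not for every partner. Of the values that turned with the correction, only that of TRRAP was called before it. Called after it were TELO2 in K148Q against parental cells (adjusted p = 0.0023), and TAF6L (adjusted p = 0.0075) and MEAF6 (adjusted p = 0.0007) in K148R against parental cells. Upper quartile scaling turned TELO2 (-0.03) in K148Q cells. Leaving out 1 library turned uncalled values in K148Q against parental cells for RUVBL2 (-0.06 to 0.06), ESCO2 (-0.3 to 0.01), CRAT (-0.15 to 0.0) and TELO2 (-0.03 to 0.11), in K148R against parental cells for TAF6L (-0.05 to 0.1), and in K148R against K148Q cells for NAA40 (-0.05 to 0.09). Leaving out 1 library gave 7 to 9 called members in K148R against parental cells, 6 to 9 in K148Q against parental cells and 8 to 9 between the mutants, and 69 to 81, 50 to 77 and 62 to 77 called partners. With the replicate block 9, 7 and 8 members were called, as without it, and 74, 70 and 71 partners. Without the GC correction the block changed no call of the 10 genes. Among the partners followed, it added calls of MEAF6 (-0.17, adjusted p = 0.033) and EID1 (-0.38, adjusted p = 0.026) in K148Q against parental cells. It also added a call of CITED2 in K148R against K148Q cells (0.14, adjusted p = 0.047). Changes among the other partners were counted but not followed gene by gene. Deviations of libraries with the same number correlated from -0.024 to 0.269, and not every library correlated best with its own number, so the numbers were not taken as pairs. Scaling shifted the median of all genes by at most 0.043 in size. Parental levels per kilobase of the longest transcript were 13.6 for EP300, 4.18 for CREBBP, 33.2 for KAT2A, 2.39 for KAT2B, 22.9 for KAT5, 12.9 for KAT6A, 5.13 for KAT6B, 6.43 for KAT7, 13.6 for KAT8 and 10.1 for TRRAP, since that length is shorter. KAT2B, with 130 to 347 counts per library, had the least depth.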
